A study of Mus musculus with 64 samples.

Results

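Indole-3-carbinol (I3C) was given to wild-type macrophages before bacterial activation, and gene expression was measured 3 h after it. The comparison rests on 8 of the 64 RNA-seq libraries of the study, chosen by their labels alone: 4 libraries of *Ahr*+/+ bone marrow-derived macrophages (BMMs) given I3C and then heat-killed *Salmonella* Enteritidis (hk *S*.E.), and 4 given the vehicle DMSO in place of I3C. The BMMs came from female C57BL/6JRj *Ahr*+/+ mice of 8 to 12 weeks, with 4 mice per genotype, and were grown in M-CSF-rich supernatant of the fibroblast line L929. More than 80% of them carried CD11b and F4/80, and in bulk RNA fewer cells of a type and less RNA per cell cannot be told apart. They were held for 6 h with I3C at 10 µM or with DMSO alone, DMSO being at 0.01% in the vehicle arm, and then received 10000000 hk *S*.E. per ml. Read against these 8 were 8 libraries of *Ahr*-/- BMMs treated alike, 8 *Ahr*+/+ libraries at 20 h, 4 *Ahr*+/+ libraries given benzo[a]pyrene (BaP) at 1 µM and 4 unactivated ones at 3 h. The *Ahr*-/- mice were backcrossed onto the same background.

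I3C is a compound of cruciferous vegetables whose acid condensation products bind the aryl hydrocarbon receptor (AhR). Bound AhR enters the nucleus, pairs with ARNT and binds a short element, the AhR response element, near genes such as *Ahrr*, *Tiparp*, *Nqo1* and the *Cyp1* family. *Ahrr* encodes the AhR repressor, which competes with AhR for ARNT and closes a feedback loop. Many plant compounds, I3C among them, are also known to engage NRF2, the transcription factor that drives glutathione, thioredoxin and NADPH genes. In macrophages AhR is induced by bacterial products and is known to temper cytokine output.

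The 8 libraries held 15588070 to 24373331 counts on genes, and 78.0% to 80.0% of their read pairs lay on genes. Macrophage markers summed to 22500 to 26100 counts per 1000000 (CPM) with I3C and to 23800 to 26200 CPM with DMSO. T cell, B cell, dendritic cell, mast cell, NK cell and fibroblast markers summed to at most 1.83 CPM in any library, and all 6 erythroid markers were at 0. The 8 neutrophil markers summed to 111 to 173 CPM with I3C and 71.9 to 167 CPM with DMSO. The I3C library of replicate 3 had 3.29% of read pairs of low quality, against 0.997% to 1.18% in the other I3C libraries. The submitters' library identifiers fell in 2 series, with DMSO replicates 1 and 2 and I3C replicate 2 in one and the other 5 libraries in the other, and a model with this series as a term called 14 genes where the model without it called 19. *Ahr* was counted in the libraries labelled *Ahr*-/- too, at 12.8 to 13.1 CPM with DMSO, against 4.46 to 9.77 CPM in *Ahr*+/+ BMMs. That value sums all exons and checks nothing about a deletion of part of the gene. *Ahr* itself was at 5.79 to 7.80 CPM with I3C in *Ahr*+/+ BMMs, a log2 fold change of -0.06 (SE 0.22).

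Few genes were called 3 h after activation by the main model, which has no replicate block. With edgeR's quasi-likelihood test and Benjamini-Hochberg adjustment over 14537 genes, 19 genes (0.131%) passed an adjusted p of 0.01. Of these, 2 were higher with I3C (0.0138% of genes tested) and 17 were lower (0.117%). The 2 higher genes were *Ahrr* and *Arl4c*, and all 17 lower ones were processed pseudogenes, intronless copies of mRNAs written back into the genome. A model with the replicate number as a block within genotype, which compares cells taken as of the same mouse, called 57 genes (0.392%), among them all 19. These were 9 protein-coding genes that were higher, 47 processed pseudogenes that were lower and 1 single-exon protein-coding gene, *Gm6133*, that was lower. At an unadjusted p of 0.05, 744 genes (5.12%) passed. For scale, hk *S*.E. alone changed 8222 genes at the adjusted threshold.

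*Ahrr* (ENSMUSG00000021575.16, GRCm38 chr13:74211118-74292331, minus strand) gave the clearest rise. It read 0.562, 0.566, 0.346 and 0.582 CPM in DMSO replicates 1 to 4, or 8, 10, 5 and 9 counts. With I3C the same replicates read 2.28, 2.55, 2.49 and 1.83 CPM, or 31, 40, 31 and 35 counts. Every I3C library lay above every DMSO library, which held for 6.14% of all genes tested in one direction or the other. The log2 fold change was 2.13 (SE 0.28, n = 4 per group, adjusted p 5.78e-06 by edgeR's quasi-likelihood test), and leaving out any 1 of the 8 libraries kept it between 1.98 and 2.22 with an adjusted p of at most 0.000167. Activation had lowered the gene: unactivated BMMs read 2.42 to 3.79 CPM.

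*Arl4c* (ENSMUSG00000049866.12, GRCm38 chr1:88673125-88702221, minus strand) encodes an ARF-like small GTPase that acts in cholesterol transport and membrane traffic. It read 6.68, 5.71, 3.46 and 5.88 CPM with DMSO and 8.90, 9.36, 8.19 and 6.65 CPM with I3C. I3C replicate 4 lay just under DMSO replicate 1, so the groups overlapped by these libraries, and the gene was higher with I3C in 4 of 4 replicate numbers. Its log2 fold change was 0.60 (SE 0.12, adjusted p 0.00907 by edgeR's quasi-likelihood test, 0.003 with the block). The call held only when DMSO replicate 1 or I3C replicate 4 was the library left out, with adjusted p from 0.00444 to 0.109 over the 8 fits. Other scalings and filters each ended it as well, with adjusted p of 0.0101 to 0.0235, and it was 0.313 with edgeR on the compared groups and 0.122 without pseudogenes. Activation had lowered *Arl4c* as well, from 115 to 122 CPM in unactivated BMMs.

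*Spint1* (ENSMUSG00000027315.13, GRCm38 chr2:119237362-119249527, plus strand) encodes a membrane-bound Kunitz-type inhibitor of serine proteases such as matriptase and HGF activator. Its 4 DMSO libraries read 0.773, 1.19, 1.38 and 0.841 CPM and its 4 I3C libraries 2.13, 2.67, 2.33 and 2.30 CPM. The groups did not overlap. The log2 fold change was 1.17 (SE 0.25), with an adjusted p of 0.013 by edgeR's quasi-likelihood test and of 0.000903 with the block, and it also passed without a block by DESeq2 on all libraries (adjusted p 0.00479) and by limma on the authors' transformed values (adjusted p 0.000716), but not by DESeq2 with the block on the 8 libraries (adjusted p 0.152). In the libraries labelled *Ahr*-/- the gene was at or near 0 (0 to 0.0968 CPM), and no fold change is read there.

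The promoter windows of these 3 genes are shown because AhR binds the letters GCGTG, and because they belong to the 2 genes called as higher and to the gene with the largest fold among the higher ones added by the block. They run from 250 bases before to 50 after the start in RefSeq on GRCm38.p6, each written on the gene's own strand, and capitals mark GCGTG or its reverse complement CACGC.
Ahrr, chr13:74292282-74292581, minus strand: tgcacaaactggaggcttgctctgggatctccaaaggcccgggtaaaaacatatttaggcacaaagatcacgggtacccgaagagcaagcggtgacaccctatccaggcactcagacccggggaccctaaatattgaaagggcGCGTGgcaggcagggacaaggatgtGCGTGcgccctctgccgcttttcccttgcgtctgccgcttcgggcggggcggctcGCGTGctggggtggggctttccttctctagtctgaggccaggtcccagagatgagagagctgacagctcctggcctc
Arl4c, chr1:88702142-88702441, minus strand: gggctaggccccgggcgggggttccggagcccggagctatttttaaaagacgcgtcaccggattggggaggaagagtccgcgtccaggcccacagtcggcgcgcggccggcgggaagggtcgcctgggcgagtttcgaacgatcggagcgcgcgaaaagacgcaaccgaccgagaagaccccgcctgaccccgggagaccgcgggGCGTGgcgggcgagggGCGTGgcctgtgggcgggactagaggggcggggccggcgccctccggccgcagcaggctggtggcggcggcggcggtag
Spint1, chr2:119237110-119237409, plus strand: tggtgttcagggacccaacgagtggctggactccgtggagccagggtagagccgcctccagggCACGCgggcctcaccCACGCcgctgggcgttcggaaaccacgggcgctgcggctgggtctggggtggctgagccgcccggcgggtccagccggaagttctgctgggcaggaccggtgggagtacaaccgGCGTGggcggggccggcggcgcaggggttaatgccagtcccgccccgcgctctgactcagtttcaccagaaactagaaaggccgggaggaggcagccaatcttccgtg
The motif stood 3 times in the *Ahrr* window, 2 times in that of *Arl4c* and 3 times in that of *Spint1*, counting both strands. It also stood in 55.8% of the 9519 protein-coding genes tested that have a window, and in 32.4% of all 32851 windows, so its presence is a description of these sequences and not a site. The windows of *Nqo1*, *Mmp8* and *Smox* held no match.

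**Figure D1:**
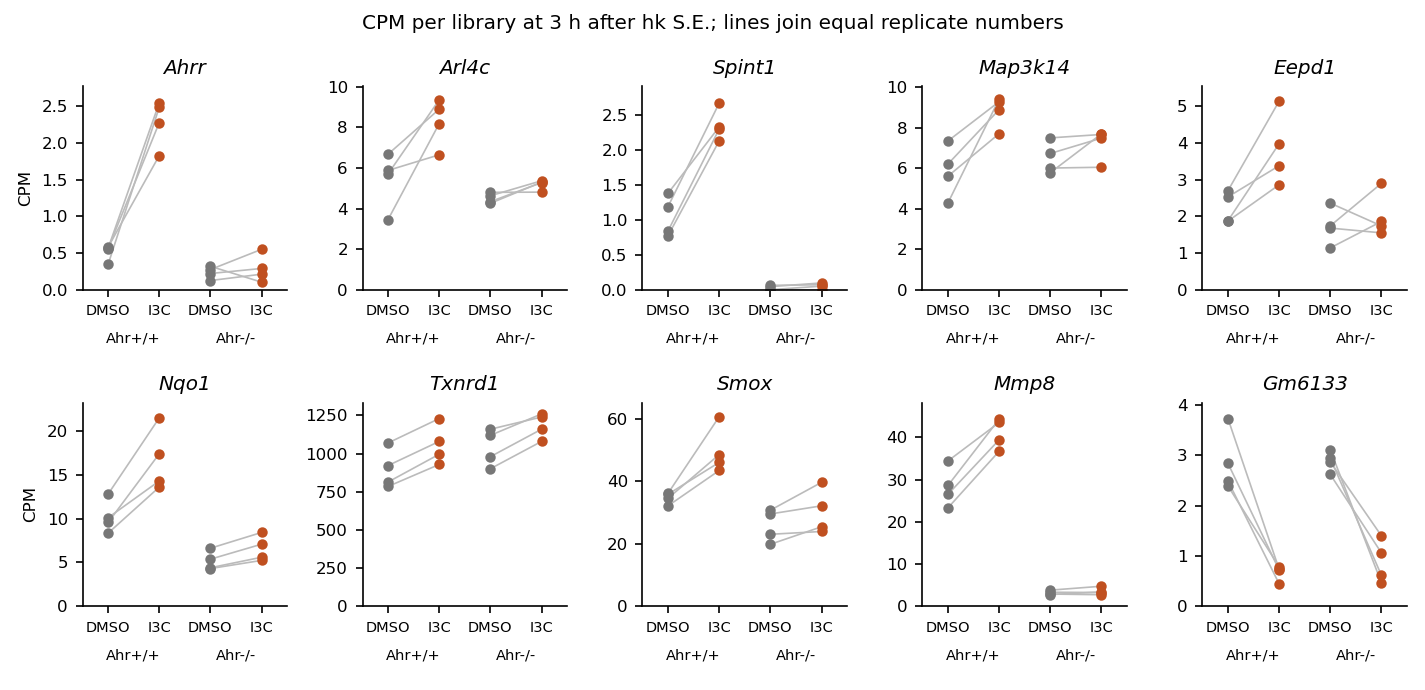
CPM (y axis, from 0) of 10 genes in each library 3 h after hk *S*.E., for DMSO (grey) and I3C (orange) in *Ahr*+/+ and *Ahr*-/- BMMs, with lines joining equal replicate numbers. The *Ahr*+/+ groups overlap for *Arl4c* and *Txnrd1* and separate without overlap for the other genes shown, and *Gm6133* is lower with I3C in both genotypes.

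The other 6 protein-coding genes that rose with the block missed the threshold without it, and each was higher with I3C in 4 of 4 replicate numbers. Without pseudogenes in the model with the block their calls ended, with adjusted p from 0.0527 (*Smox*) to 0.207 (*Txnrd1*). *Map3k14* encodes NIK, the kinase of the non-canonical NF-kappaB pathway. It read 4.29, 7.35, 5.61 and 6.21 CPM with DMSO and 9.42, 9.29, 7.71 and 8.90 CPM with I3C, with no overlap. Its log2 fold change was 0.59 (SE 0.13, adjusted p 0.0202 by edgeR's quasi-likelihood test, 0.00869 with the block). *Eepd1*, an endonuclease-exonuclease-phosphatase family protein reported as a target of the sterol receptor LXR, read 2.53, 1.87, 2.70 and 1.88 CPM with DMSO and 3.38, 2.86, 5.14 and 3.98 CPM with I3C (log2 fold change 0.78, SE 0.21, adjusted p 0.0738 and 0.00877). *Nqo1*, the quinone reductase shared by the AhR and NRF2 gene programmes, read 9.56, 10.1, 12.8 and 8.34 CPM with DMSO and 17.4, 14.3, 21.5 and 13.6 CPM with I3C. Replicate 3 was the highest in both arms, and the I3C values still lay above all DMSO values (log2 fold change 0.71, SE 0.24, adjusted p 0.39 and 0.00749).

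*Smox* encodes spermine oxidase, which breaks spermine down and releases hydrogen peroxide. Its DMSO libraries read 35.8, 36.1, 34.5 and 32.1 CPM and its I3C libraries 46.0, 60.6, 48.5 and 43.4 CPM, with no overlap (log2 fold change 0.52, SE 0.18, adjusted p 0.411 by edgeR's quasi-likelihood test and 0.00279 with the block). *Mmp8*, a collagenase best known from neutrophil granules, read 28.6, 34.4, 26.5 and 23.3 CPM with DMSO and 44.3, 43.5, 39.4 and 36.7 CPM with I3C (log2 fold change 0.54, SE 0.20, adjusted p 0.5 and 0.00729). The part of the neutrophil markers given above in the *Mmp8* value was not tested. *Txnrd1*, cytosolic thioredoxin reductase and an NRF2 target, read 922, 785, 1070 and 814 CPM with DMSO and 1080, 929, 1230 and 996 CPM with I3C. Here the groups overlapped, since replicates 1 and 3 were high and 2 and 4 low in both arms, and the difference within replicate numbers was a log2 fold change of 0.24 (SE 0.05 with the block, adjusted p 0.00427; 0.687 without it).

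*Ahrr* was the 1 gene of the AhR battery called without the block. The list held 12 genes, of which 7 had enough counts to be tested. *Nqo1* was added by the block, and the median log2 fold change of the 7 was 0.50 beside 0.03 over all genes tested. All 7 were above 0 as scaled here, and 5 of 7 with upper-quartile factors. *Tiparp*, the AhR-induced PARP that shuts the receptor down, read 369 to 461 CPM with DMSO and 374 to 457 CPM with I3C (log2 fold change 0.03, SE 0.26), after a rise of 4.51 with hk *S*.E. alone. *Cyp1a1*, the classical monooxygenase target, had 0 counts in all 8 libraries, and *Cyp1b1* had 0, 0, 1 and 0 counts with DMSO and 1, 1, 2 and 2 with I3C. A count of 0 allows up to 3 counts per library, which is 0.157 to 0.241 CPM over these libraries, counting error alone considered. No difference was detectable for either gene at this depth. *Ugt1a6a*, a glucuronosyltransferase, had 2, 1, 3 and 1 counts with DMSO and 3, 2, 39 and 26 with I3C. Its log2 fold change of 3.33 (SE 1.02, adjusted p 0.221 by edgeR's quasi-likelihood test) rested on I3C replicates 3 and 4, and the gene shares exons with the rest of the *Ugt1a* cluster. *Cyp2s1*, *Ugt1a6b* and *Nfe2l2*, the gene of NRF2 itself, gave log2 fold changes of 0.50, 0.19 and 0.04 with adjusted p of 1.0.

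The same comparison in BMMs labelled *Ahr*-/- asks which of these differences need the receptor. *Ahrr* read 0.125, 0.275, 0.221 and 0.319 CPM with DMSO there and 0.212, 0.551, 0.290 and 0.103 CPM with I3C. These ranges overlap, and the log2 fold change was 0.36 (p 0.392). The difference between the genotypes' fold changes, 1.77 on the log2 scale (p 0.00134), had an adjusted p of 1.0. *Arl4c* gave 0.21 (p 0.102), *Map3k14* 0.15 (p 0.247), *Smox* 0.23 (p 0.2) and *Mmp8* 0.13 (p 0.591) on the log2 scale, each less than in *Ahr*+/+ BMMs but not shown to differ from it. *Nqo1* (0.35, p 0.174) and *Txnrd1* (0.19, p 0.0529) were likewise less than in *Ahr*+/+ BMMs and not shown to differ from it. All of these log2 fold changes were above 0 in both genotypes. Over all genes, 0 differed between the genotypes in their response to I3C by edgeR's quasi-likelihood test, by DESeq2 or in any alternative run, and 241 genes (1.66%) had an unadjusted p below 0.05. The smallest adjusted p, 0.276, belonged to *2810021J22Rik*, with a log2 fold change of 0.70 in *Ahr*+/+ and -0.51 in *Ahr*-/- BMMs.

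NRF2 target genes had small differences of one sign. Of the 27 genes listed, all 27 were tested and 0 were called by edgeR's quasi-likelihood test (5 had an unadjusted p below 0.05, beside 5.12% of all genes, and *Txnrd1* was called with the block, beside 0.392%). All 27 had a log2 fold change above 0 under each of 4 scalings, with a median of 0.15 as scaled here. Beside this, 62.4% of all genes tested were above 0 with a median of 0.03, and 67.2% of protein-coding genes with 0.04. With upper-quartile factors, which put 45.6% of all genes above 0, the median of the list was 0.11. The list median within replicate numbers 1 to 4 was 0.18, 0.16, 0.14 and 0.25. In BMMs labelled *Ahr*-/- 26 of the 27 were above 0 (median 0.19, against 55.0% of all genes), and in *Ahr*+/+ BMMs at 20 h 24 of 27 were (median 0.15, against 51.3%). With BaP at 3 h, a comparison that uses the same DMSO libraries, 15 of 27 were above 0 with a median of 0.02. One sign was not particular to this list. The 9 MHC class II genes were all above 0 with I3C at 3 h under the same 4 scalings, with a median of 0.16 as scaled here.

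Members came from each arm of the programme. *Pgd*, which makes NADPH in the pentose phosphate pathway, read 575, 514, 613 and 530 CPM with DMSO and 677, 634, 750 and 670 CPM with I3C, with no overlap (log2 fold change 0.29, SE 0.11, p 0.00931, adjusted p 0.526 by edgeR's quasi-likelihood test). *Srxn1*, sulfiredoxin, which repairs oxidized peroxiredoxins, read 344, 283, 421 and 309 CPM with DMSO and 424, 333, 487 and 400 CPM with I3C (0.28, SE 0.11, p 0.0165). Its groups overlapped while each I3C library was above the DMSO library of its own number. *Gclm* and *Gclc*, the subunits of the enzyme that starts glutathione synthesis, gave log2 fold changes of 0.29 and 0.15 (*Gclc* -0.07 without I3C replicate 3). *Hmox1*, heme oxygenase, gave 0.26, *Slc7a11*, the cystine importer, 0.29, and *Ftl1*, the ferritin light chain, 0.25. None of these passed in the main model. Over 17 alternative settings that left out no library, *Pgd* and *Srxn1* passed in 3 each. *Gclm*, *Hmox1*, *Slc7a11* and *Ftl1* passed in 2 each, and *Gclc* in 0. The response in the libraries labelled *Ahr*-/- was 0.28 for *Pgd* and 0.30 for *Srxn1*.

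**Figure D2:**
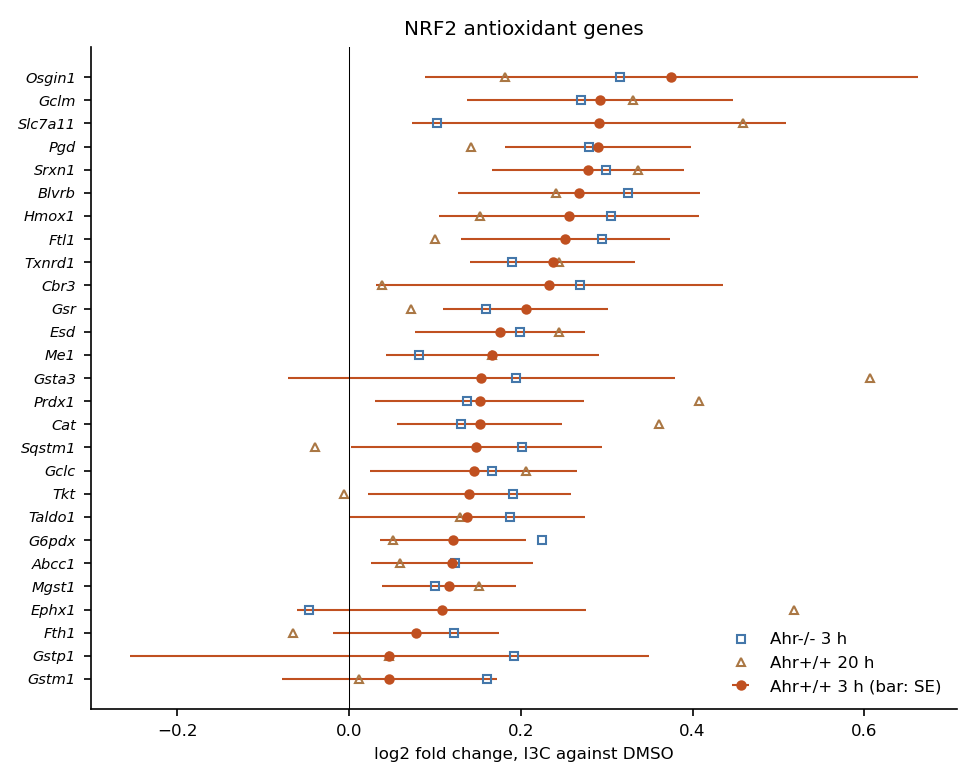
Log2 fold change, I3C against DMSO (x axis), of the 27 NRF2 antioxidant genes: *Ahr*+/+ at 3 h (filled circles, bars 1 SE each way), *Ahr*-/- at 3 h (squares) and *Ahr*+/+ at 20 h (triangles). All 27 circles lie above 0, the highest at 0.38, and 26 squares and 24 triangles do.

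The decreases were in processed pseudogenes. Such copies carry scattered mismatches to the mRNA they came from, and a read is assigned to one of them only where it aligns there in one place. Stretches of 3 called pseudogenes are shown over the parent mRNA, because the decreases were in these copies while their parents had fold changes near 0. Positions are on GRCm38, each line runs 5′ to 3′ on the pseudogene's strand, and capitals mark the bases that differ within the pair.
Gm5869, chr5:86997159-86997278, plus strand: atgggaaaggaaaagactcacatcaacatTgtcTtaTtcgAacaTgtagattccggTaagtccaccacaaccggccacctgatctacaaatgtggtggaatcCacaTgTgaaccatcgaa
Eef1a1 mRNA, same stretch: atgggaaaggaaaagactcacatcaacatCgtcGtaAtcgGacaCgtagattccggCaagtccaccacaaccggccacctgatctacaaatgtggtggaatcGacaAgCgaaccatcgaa
Rpl21-ps6, chr17:55915751-55915870, minus strand: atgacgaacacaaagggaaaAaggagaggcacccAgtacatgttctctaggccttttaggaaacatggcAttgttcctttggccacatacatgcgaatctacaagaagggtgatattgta
Rpl21 mRNA, same stretch: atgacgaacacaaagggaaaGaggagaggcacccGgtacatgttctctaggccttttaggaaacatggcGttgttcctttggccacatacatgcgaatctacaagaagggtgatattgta
Ftl1-ps2, chr10:130592480-130592599, minus strand: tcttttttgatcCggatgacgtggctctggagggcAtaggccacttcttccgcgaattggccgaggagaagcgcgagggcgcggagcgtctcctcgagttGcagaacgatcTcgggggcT
Ftl1 mRNA, same stretch: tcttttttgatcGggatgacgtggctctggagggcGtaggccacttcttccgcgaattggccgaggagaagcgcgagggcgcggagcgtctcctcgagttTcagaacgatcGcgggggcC
These stretches of 120 bases held 9, 3 and 5 mismatches. Each was picked as the ungapped window of the parent's coding sequence with the most mismatches. Gaps and parts outside the coding sequence were left out, so a stretch can differ more or less than the whole copy. Over its whole length *Gm5869* was 96.3% identical to the mRNA of *Eef1a1*, the elongation factor that brings aminoacyl-tRNA to the ribosome, *Rpl21-ps6* was 93.8% identical to that of the ribosomal protein gene *Rpl21*, and *Ftl1-ps2* was 97.8% identical to that of *Ftl1*.

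*Gm5869* read 17.5, 16, 17.4 and 15.5 CPM with DMSO and 4.34, 5.16, 7.22 and 4.40 CPM with I3C. The groups were far apart, with a log2 fold change of -1.66 (SE 0.24, adjusted p 3.32e-05 by edgeR's quasi-likelihood test), while *Eef1a1* was at 0.05. *Rpl21-ps6* read 1.69, 1.58, 2.22 and 2.26 CPM with DMSO and 0.221, 0.318, 0.401 and 0.524 CPM with I3C (log2 fold change -2.36, SE 0.39, adjusted p 0.000405), and *Rpl21* gave 0.00. *Ftl1-ps2* read 23.8, 23.0, 21.1 and 27.8 CPM with DMSO and 6.92, 7.07, 8.19 and 8.27 CPM with I3C (-1.65, SE 0.30, adjusted p 0.00166). Here the parent *Ftl1* gave 0.25 in the other direction. *Gm7823*, a copy of *Lcp1*, the actin-bundling protein L-plastin of leukocytes, read 4.01, 4.30, 3.46 and 3.75 CPM with DMSO and 0.883, 0.955, 1.04 and 0.628 CPM with I3C (-2.16, SE 0.33, adjusted p 0.000113).

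The 17 called pseudogenes derived from 15 parents, and 11 of them from ribosomal protein genes. Their log2 fold changes ran from -3.64 to -1.15, with a median of -1.73, while the median of their parents was 0.05. The calls chose these 17, so their fold changes are given in the *Ahr*-/- libraries and the 20 h libraries, which entered the filter and the estimate of spread but not the contrast that was called. In BMMs labelled *Ahr*-/- all 17 were lower with I3C, 14 of them without overlap of the groups, where 1.87% of all genes tested were lower without overlap. Their median there was -1.36, and 3 were called among the 3 genes (0.0206%) called in that genotype, which were *Gm5869* (-1.39), *Gm7823* (-1.63) and *CT485613.4* (-1.99). The block called 20 genes in that genotype. In *Ahr*+/+ BMMs at 20 h all 17 were lower without overlap, where 3.66% of all genes were, with a median of -1.34, and 11 were called. With BaP at 3 h, against the same DMSO libraries, their log2 fold changes ran from -0.88 to 0.19 with a median of -0.39. Leaving out 1 library at a time kept *Gm5869*, *Gm7823*, *Rpl21-ps6*, *Gm5644* and *Gm10054* called in 8 of 8 fits, lost *Ftl1-ps2* without I3C replicate 1, I3C replicate 2 or DMSO replicate 4, and left 5 to 11 pseudogenes called. Of the 47 pseudogenes called with the block, all 47 were lower in both other settings, 36 and 38 of them without overlap.

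**Figure D3:**
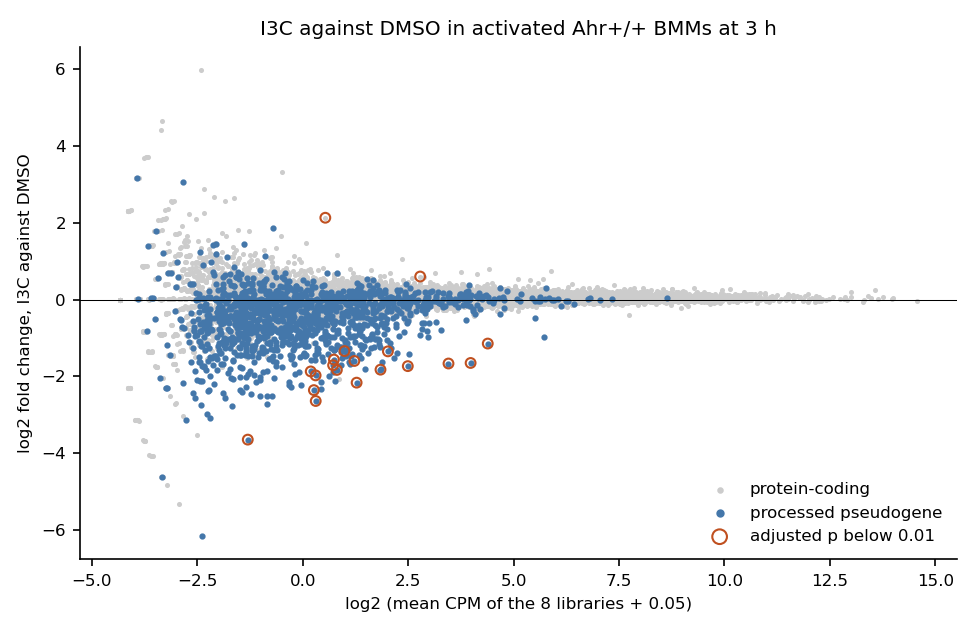
Log2 fold change, I3C against DMSO (y axis), against the mean level of the 8 libraries (x axis, log2 of CPM plus 0.05), for protein-coding genes (grey) and processed pseudogenes (blue), with the 19 genes called ringed. The 2 ringed grey points above 0 are *Ahrr* and *Arl4c*, the 17 ringed blue points lie between -3.64 and -1.15, and 25.7% of the blue points lie above 0.

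The pseudogenes that were not called lay low as well. Of 1319 processed pseudogenes tested, 339 (25.7%) had a log2 fold change above 0, against 62.4% of all genes, and their median was -0.34. Their 4 libraries lay below all DMSO libraries in 274 and above them in 12, where 2.64% of all genes tested lay below. The 126 pseudogenes whose symbol names a ribosomal protein gene had a median of -0.63, with 3 called (0.131% of all genes were) and 44 lower and 0 higher at an unadjusted p below 0.05 (5.12% of all genes passed it in either direction). The 85 ribosomal protein genes themselves had a median of 0.06 with 0 called, and 75 of them above 0 as scaled here but 51 with upper-quartile factors. The 177 pseudogenes of other annotated types had a median of 0.06.

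The decrease differed with the identity of a copy to its parent. The matching also took processed pseudogenes annotated as transcribed, which stand among the other types above. With these, 1346 pseudogenes aligned to a parent mRNA over at least 80% of their length. Those 85 to 90% identical had a median of -0.59 (n = 38), those 93 to 95% identical -0.64 (n = 114) and those 97 to 99% identical -0.42 (n = 437). The median was -0.02 for copies at least 99% identical (n = 373), and 0.02 for the 19 copies under 85% (-0.37 in BMMs labelled *Ahr*-/-), a group too small to weigh. The *Ahr*-/- BMMs gave -0.64, -0.75, -0.40 and 0.00 in the same 4 larger groups. Parents had medians of 0.04 to 0.06 in every group. Copies of ribosomal protein genes had a median of -0.62 (n = 443) and other copies of -0.20 (n = 903). Identity and the ratio of parent to copy level differ together between these groups, and members share parents, so these are descriptions across genes. *Gm6133*, the 1 protein-coding gene that fell with the block, has 1 exon. Only transcripts of the tested protein-coding genes were searched, without pseudogenes, and there *Gm6133* had no copy at 85% identity over 80% of its length. It read 3.73, 2.49, 2.84 and 2.39 CPM with DMSO and 0.736, 0.446, 0.722 and 0.786 CPM with I3C (-2.08, SE 0.45, adjusted p 0.013 by edgeR's quasi-likelihood test and 0.00223 with the block, 0.017 with the block but no pseudogenes), and gave -1.72 in BMMs labelled *Ahr*-/-.

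**Figure D4:**
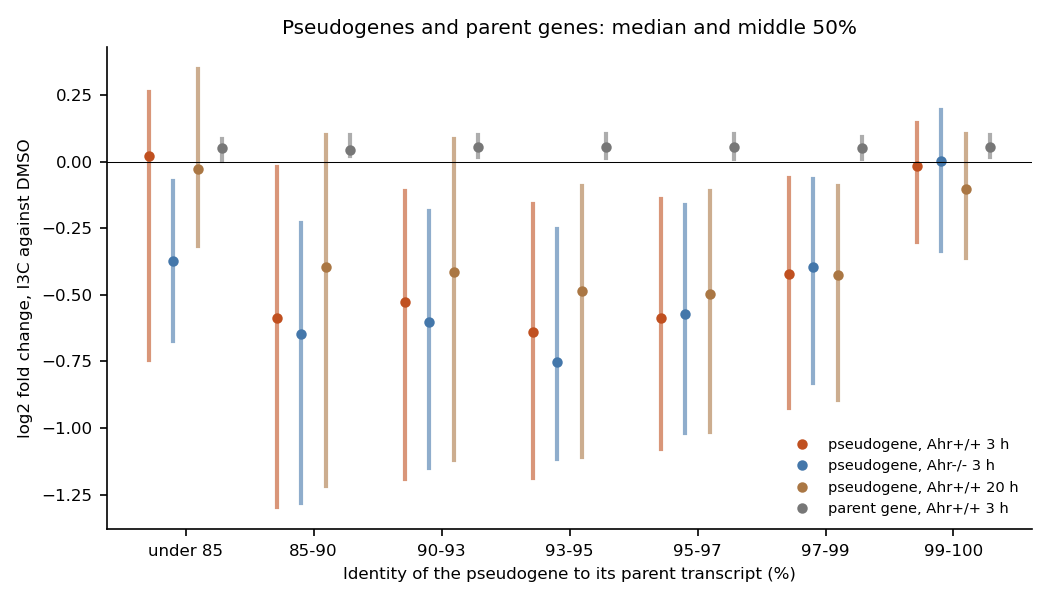
Log2 fold change, I3C against DMSO (y axis), of processed pseudogenes, those annotated as transcribed included, by their identity to the parent transcript in percent (x axis). Shown are median (point) and middle 50% (bar) in *Ahr*+/+ at 3 h, *Ahr*-/- at 3 h and *Ahr*+/+ at 20 h, with the parent genes in grey. Medians lie between -0.75 and -0.40 for copies 85 to 99% identical at 3 h and near 0 at 99% and above, while parents stay near 0.05.

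In whole libraries, processed pseudogenes took 0.363% ± 0.00618 of the counts with I3C and 0.420% ± 0.0071 with DMSO (SD, n = 4 each). The 4 I3C libraries (0.357% to 0.369%) lay below the 4 DMSO libraries (0.411% to 0.428%). A two-sided exact permutation test over the 70 splits of 4 against 4 gave p 0.0286, the smallest it can give, with an adjusted p of 0.0429 over 6 such tests. The same 8 libraries gave the pseudogene calls above, so this p adds no separate support to them. The share fell by the same test in BMMs labelled *Ahr*-/- (0.383% against 0.435%) and in *Ahr*+/+ BMMs at 20 h (0.322% against 0.376%), each with a permutation p of 0.0286. The share of read pairs that aligned to several places, which the counting leaves out, was 13.4% ± 0.171 with I3C and 13.9% ± 0.219 with DMSO (exact permutation p 0.0286, adjusted 0.0429). It moved in the same direction in BMMs labelled *Ahr*-/- (exact permutation p 0.257) and at 20 h (0.143) without passing the test, which ignores replicate numbers, and was lower with I3C in 4 of 4 replicate numbers in each of the 3 settings. Its part in the pseudogene values was not tested.

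**Figure D5:**
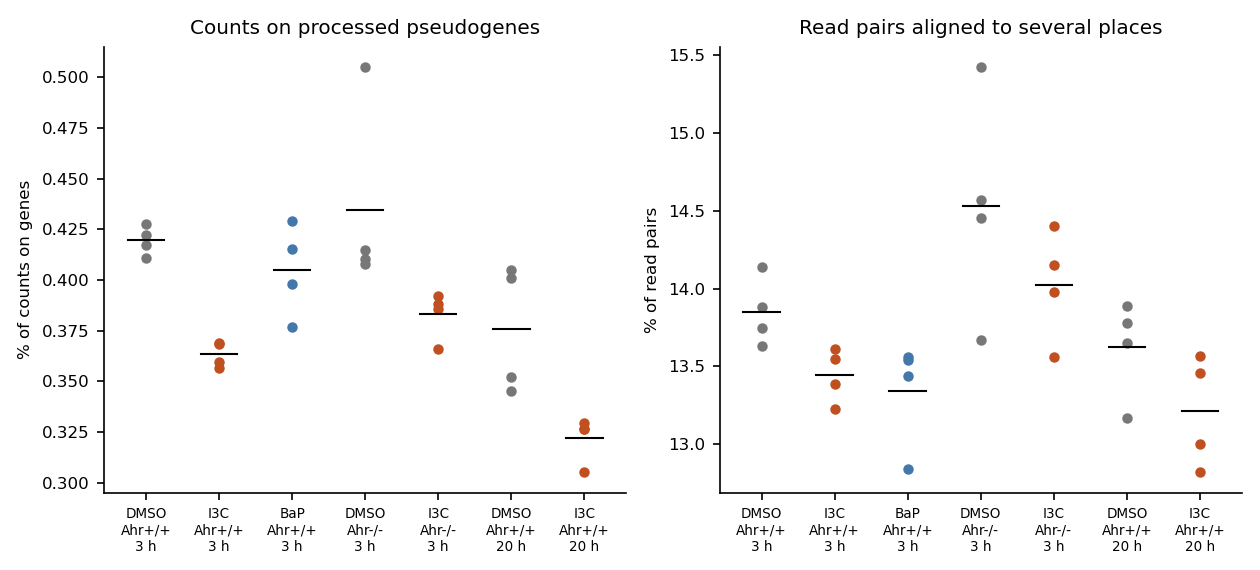
Percent of counts on processed pseudogenes (left) and percent of read pairs aligned to several places (right) in each library of 7 activated groups, with a bar at the group mean (neither axis starts at 0). On the left the I3C points lie below the DMSO points in each of the 3 settings, and the BaP points at 0.377% to 0.429% reach into the DMSO range, and on the right I3C and BaP both lie low at 3 h in *Ahr*+/+ BMMs.

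More genes were called at 20 h than at 3 h. Depth differed as well, with 21475497 to 47689280 counts on genes at 20 h against 15588070 to 24373331 at 3 h. Its part in the number of calls was not tested. At 20 h, 74 genes (0.509%) were called (147 with the block), 7 higher and 67 lower. Of these, 33 were processed pseudogenes and 41 protein-coding. *Ahrr* read 5.84, 6.16, 5.94 and 4.58 CPM with DMSO and 14.4, 16.6, 17.1 and 16 CPM with I3C (log2 fold change 1.51, adjusted p 9.03e-08 by edgeR's quasi-likelihood test). *Spint1* (1.43, adjusted p 6.58e-06) and *Mmp8* (1.41, adjusted p 5.16e-06) were called at 20 h, where *Arl4c* (0.42, adjusted p 0.0189) and *Nqo1* (1.13, adjusted p 0.0112) missed the threshold. *Map3k14* gave 0.03 at 20 h. *Mmp27*, another matrix metalloproteinase, gave 0.21 at 3 h and rose by 1.76 at 20 h (adjusted p 0.000856). Between the time points 4 genes (0.0275%; 7 with the block) differed in their response, all 4 with a larger decrease at 20 h. None of the 4 calls held with TMM on protein-coding genes or without pseudogenes, each of which left 0 genes called. Among them was *Smyd3*, a lysine methyltransferase, which read 5.62 to 6.45 CPM with DMSO and 4.25 to 5.18 CPM with I3C at 3 h (-0.42, adjusted p 0.387) and fell by 1.57 at 20 h (adjusted p 5.05e-10). Of the 41 protein-coding genes called at 20 h, 33 span over 100 kb, beside 1452 of all 12015 protein-coding genes tested. The 1452 genes of that span tested at 3 h had a median log2 fold change of 0.01, with 0 called.

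I3C and BaP share the DMSO libraries, so their values stand side by side, and the doses differ (10 µM and 1 µM). *Ahrr* gave 2.13 with I3C and 3.36 with BaP, *Arl4c* 0.60 and 1.09, *Spint1* 1.17 and 1.49, *Eepd1* 0.78 and 1.29, *Il21r* 0.41 and 0.81 and *Exoc3* 0.23 and 0.32, all log2 fold changes at 3 h. *Map3k14* gave 0.59 with I3C and 0.27 with BaP. Set against each other without DMSO, 16 genes (0.11%) differed between the ligands, all lower with I3C. These were *Ahrr*, by -1.23 (adjusted p 0.00163 by edgeR's quasi-likelihood test, BaP libraries 4.18 to 6.96 CPM), and 15 pseudogenes, among them *Gm5869* (-1.70, BaP libraries 11.4 to 20.0 CPM).

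The inflammatory programme of activation showed no call with I3C at 3 h. Of 16 proinflammatory cytokines tested, 0 passed and 6 were above 0, with a median of -0.04. *Il1b* read 4080, 4170, 4490 and 3770 CPM with DMSO and 3930, 3940, 4360 and 3540 CPM with I3C, overlapping ranges with a log2 fold change of -0.07 (SE 0.26), beside 9.52 for hk *S*.E. alone. *Tnf* gave 0.01 and *Il6* 0.02. *Il10*, the anti-inflammatory cytokine, read 9.70, 16.1, 10.7 and 7.24 CPM with DMSO and 9.78, 18.3, 11.8 and 7.33 CPM with I3C (0.10, SE 0.28), and replicate 2 was high in both arms. No member passed among 19 chemokines (median -0.03), 33 type I interferon-stimulated genes (0.02), 16 interferon-gamma-inducible GTPases (0.02), 20 Toll-like receptors and adapters (0.03), 20 anti-inflammatory cytokines and inhibitors (0.09), 9 MHC class II genes (0.16) or 12 MHC class I genes (0.10). All genes tested had a median of 0.03, and the scalings by upper quartile or on protein-coding genes moved that median to -0.01. Of the 29 genes the study names, which it chose on these samples, *Ahrr* was called and *Mmp8*, *Nqo1* and *Spint1* were added by the block. *Il21r*, the IL-21 receptor, read 10.9 to 13.2 CPM with DMSO and 13.6 to 18.5 CPM with I3C without overlap (0.41, SE 0.16, adjusted p 0.608). *Irf1* gave 0.12, *Ido2* 0.54, *Il12rb1* 0.21, *Slpi* 0.11 and *Cd84* 0.01, all with adjusted p over the threshold.

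Below the threshold, some protein-coding genes separated the groups without overlap. *Exoc3*, a subunit of the exocyst that tethers secretory vesicles and the gene next to *Ahrr*, read 44.6, 45.5, 44.9 and 44.7 CPM with DMSO and 52.4, 51.1, 53.8 and 54.1 CPM with I3C. This small difference stood out against a narrow spread (log2 fold change 0.23, SE 0.06, adjusted p 0.0623 by edgeR's quasi-likelihood test), was 0.02 in BMMs labelled *Ahr*-/- and passed at 20 h (0.28, adjusted p 0.0042). *Lrrc8d*, a subunit of the volume-regulated anion channel, read 122, 121, 128 and 119 CPM with DMSO and 146, 139, 153 and 141 CPM with I3C (0.24, SE 0.06, adjusted p 0.047). *Dll4*, a Notch ligand that hk *S*.E. raised by 4.01, read 0.843, 0.509, 0.623 and 0.194 CPM with DMSO and 1.40, 1.27, 0.883 and 2.36 CPM with I3C (1.48, SE 0.42, adjusted p 0.134). *Wwox*, an oxidoreductase gene spanning 913 kb, read 7.73 to 10.4 CPM with DMSO and 6.33 to 6.81 CPM with I3C (-0.42, SE 0.15, adjusted p 0.491) and fell by 1.31 at 20 h (adjusted p 6.44e-08). *Gm9008*, a copy 99.1% identical to *Rnf26*, and *Bcl2a1c*, a copy 96.4% identical to *Bcl2a1a*, gave -4.61 and -1.74 with adjusted p over the threshold. Both have 1 exon and near-identical relatives, so their counts are uncertain. *Bcl2a1c* had 5, 6, 2 and 8 counts with DMSO and 1, 2, 1 and 2 with I3C. Its closest libraries, at 0.138 and 0.127 CPM, had 2 counts each. On log2 CPM with a prior count of 2, *Gm9008* differed by -1.04, -1.44, -1.63 and -0.98 within replicate numbers 1 to 4. Its -4.61 is therefore not read as a size.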

How the data were processed

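RNA-seq was done by the authors, who aligned read pairs to mm10 with HISAT2 2.1.0 and counted them on GENCODE M22 genes with HTSeq 0.9.1, on the gene's strand and fully within exons, without normalization. The deposited counts per gene were the values used, and the deposited log2 values, a variance-stabilizing transformation by the authors' DESeq2 run, served 1 alternative. The 5 entries that name no gene were left out, and 78.0% to 80.0% of read pairs in the 8 libraries lay on genes. Positions are from GENCODE M21 on GRCm38.

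The analysis ran edgeR 4.0.16 under R 4.3.3, with filterByExpr with a min.count of 10 (14537 of 55487 genes), TMM, 16 group means over all 64 libraries, the quasi-likelihood test (48 residual and 5.06 prior degrees of freedom) and Benjamini-Hochberg adjustment, called at 0.01. Alternatives used DESeq2 1.42.0, limma 3.58.1, other scalings, filters, samples and thresholds, replicate blocks, the library identifier series, and leaving out each library. Models without pseudogenes were added after seeing the data. A test on simulated data preceded the fits. CPM are counts per 1000000 of the TMM-scaled library size. Before scaling, the 8 libraries held 15588070 to 24373331 counts on genes. The summed cell type markers are per 1000000 of these unscaled counts.

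Replicate numbers were taken as the 4 mice per genotype of the study's methods. Libraries sharing a number were therefore paired in the models with a replicate block and in the values given within replicate numbers. The main model held no replicate term, so its p-values leave this pairing out. As a check, deviations of same-numbered I3C and DMSO libraries correlated at 0.0735 to 0.203 in *Ahr*+/+ BMMs, with 2 of 4 above 0.1, and different-numbered ones at -0.128 to 0.0353. In *Ahr*-/- BMMs the ranges were 0.252 to 0.396 and -0.379 to 0.318, which overlap, so the check does not show which numbers share a mouse there. The p-values of the main model rest on a spread pooled over all libraries of the study, of both genotypes, both time points and every treatment. Libraries taken as of the same mouse count as independent there. These p-values are thus not a measure of the spread between the compared libraries alone.

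Genes named are those called, the 10 non-overlapping protein-coding genes of smallest p in each direction, the AhR battery and the study's genes, the 3 members of smallest p in each other list, and up to 15 protein-coding genes called with the block. *Tnf*, *Il6*, *Gclc*, *Gclm*, *Hmox1*, *Slc7a11*, *Ahr* and the parents of named pseudogenes were named beyond it with their values seen. The comparison, gene lists and tests were chosen with earlier results of these data known. Pseudogenes were matched to parents by aligning annotated transcripts, a match over at least 80% of the length counting as full. Columns of the authors' own comparisons were not used.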

Additional observations from a re-analysis of the deposited data

Results flagged for a closer look

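Among 164 sets of 4 values checked for a sample far from the other 3, 4 were found, where chance gives about 1 in 20 (5%). *Ahrr* in DMSO replicate 3 read -1.28 on the log2 CPM scale, against -0.67 to -0.63 in the other 3, and the gap took 0.932 of the range. *Slpi*, a secreted inhibitor of leukocyte proteases, read 5.28 in DMSO replicate 3 against 4.53 to 4.57, with 0.935 of the range. *Gm6133* read -0.967 in I3C replicate 2 against -0.343 to -0.232, with 0.849 of the range. The share of read pairs of low quality was 3.29% in I3C replicate 3 against 0.997% to 1.18%, with 0.92 of the range. *Smyd3* responded to I3C differently at the 2 time points, with a difference of -1.15 (log2, 20 h less 3 h, adjusted p 0.00861 by edgeR's quasi-likelihood test over all genes), a call lost with TMM on protein-coding genes and without pseudogenes.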

How the results depend on the processing

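At 3 h in *Ahr*+/+ BMMs, 19 genes were called. The count was 64 at a threshold of 0.05, 60 with edgeR on the compared groups, 38, 96 and 61 with DESeq2 on all libraries, DESeq2 on the compared groups and limma on the VST values, and 6 to 12 without 1 library, where fewer samples enter. A replicate block gave 57 (within genotype), 69 (within genotype and time) and 234 (on the 8 libraries alone), and DESeq2 with the block 99. Without pseudogenes 1 gene was left, *Ahrr*, and 2 with the block, *Ahrr* and *Spint1*. The share of calls that were higher was 10.5% and, with those 4 block fits in order, 15.8%, 20.3%, 29.5% and 40.4%. In *Ahr*-/- BMMs the count of 3 became 24 at 0.05, 20 and 33 with the 2 blocks, 12 with DESeq2, and 0 without pseudogenes, with or without a block. At 20 h the 74 became 124 at 0.05, 147 and 195 with the blocks and 37 without pseudogenes. The 4 genes of the test by time became 0 with TMM on protein-coding genes, 7 and 9 with the blocks and 0 without pseudogenes. The 16 of I3C against BaP became 32 at 0.05, 24 and 33 with the blocks, and 1 without pseudogenes, with or without a block. The cause of these moves was not tested. The test by genotype gave 0 throughout. Of 4314 values for 177 named genes over 25 settings, 4108 kept their side of the threshold, 118 lost it, 87 gained it and 1 reversed, *Gclc*, whose log2 fold change without 1 library ran from -0.069 (without I3C replicate 3) to 0.23. The blocks moved no other count of calls by over 1.5 times. At this depth, genes under about 1 CPM rest on few counts, and differences smaller than their spread are not detectable.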

Other observations

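*Ier3*, an early response gene of the NF-kappaB pathway, read 47.9, 46.5, 51.3 and 32.5 CPM with DMSO and 73.4, 81.4, 86.0 and 56.9 CPM with I3C, without overlap (log2 fold change 0.74, SE 0.32, adjusted p 0.803 by edgeR's quasi-likelihood test). Of 25 cell cycle genes tested, 0 were called by edgeR's quasi-likelihood test, and 6 were above 0 with a median of -0.05. Of 22 glycolysis and HIF-1 target genes 20 were above 0 with a median of 0.12 and 0 called, of 21 sterol synthesis genes 18 with 0.10, and of 17 matrix metalloproteinase and TIMP genes 15 with 0.08. All genes tested had a median of 0.03, and 62.4% of them were above 0. Close copies of single-exon protein-coding genes were searched among the tested protein-coding genes only. With such a copy, 27 of 53 (50.9%) were lower with I3C, against 33.0% of the 194 without one and 32.3% of the 11768 genes with more than 1 exon.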
